A study of Mus musculus with 8 samples.

Results

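The response of the distal colon to dextran sulfate sodium (DSS) in mice of the NAIL-ΔNFκB line was measured by total RNA sequencing in 2 untreated and 2 DSS-treated mice, which are 4 of the 8 libraries of the study. All genes were compared that passed a filter on low counts, 17522 of the 30454 gene symbols with at least 1 count. Every mouse was C57BL/6 and 8 to 10 weeks old. DSS was given at 3% for 4 days and was followed by 4 days of normal water. The untreated mice carried the same altered NAIL locus as the treated ones. The labels name the genotype NAIL-ΔNFκB without saying which bases differ, which cells the change acts in, whether the mice share a litter, or their sex. The other 4 libraries, 2 untreated and 2 DSS-treated wild-type (WT) mice of the same strain and age, are used here to show where the ΔNFκB response differed. All 8 libraries also entered the filter and the fit. P-values therefore measure the spread between mice within all 4 groups, 2 mice in each, and not within the ΔNFκB groups alone.

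DSS is a sulfated polysaccharide that damages the surface epithelium of the colon and lets bacteria reach the tissue below. Neutrophils and monocytes then enter, lymphocytes release interferon gamma, and crypt cells divide and spread over the wound. NAIL is a long noncoding RNA that has been described as an inhibitor of the phosphatase Wip1, and so as a link to the kinase p38 and the transcription factor NF-κB. Whole distal colon holds the mucosa, the muscle layers and the enteric nervous system, so fewer cells of a type and less RNA per cell cannot be told apart in these libraries.

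The 4 ΔNFκB libraries held 9667766 to 12954920 counts, and normalised counts per 1e6 counts (CPM), on the log2 scale, correlated within groups at 0.974 or more. The first principal component of these 4 libraries took 77.7% of their variance and separated the untreated from the treated mice. Y-linked transcripts and Xist, the RNA of the inactive X chromosome, gave both untreated ΔNFκB mice as male and both DSS-treated ones as female. DSS and sex can therefore not be told apart within this genotype. A fit with a term for sex is given beside most of the list counts below. It rests on the untreated WT mice, of which 1 was female and 1 male, and leaves 3 residual degrees of freedom. Levels of lymphoid genes also varied between libraries of a group. The B cell surface gene Ms4a1 stood at 19.5 and 6.35 CPM in the untreated mice and 18.4 and 0.309 CPM after DSS, and the T cell receptor chain Cd3e at 4.57 and 0.244 CPM in the untreated mice and 3.07 and 2.68 CPM after DSS. Mucosal and muscle markers were present in every library, since the goblet mucin Muc2 stood at 4871 and 5264 CPM in the untreated mice and 5594 and 4356 CPM after DSS and the smooth muscle myosin Myh11 at 2116 and 2086 CPM in the untreated mice and 307 and 317 CPM after DSS; these 4 genes were chosen after their values were seen. Summed over the 4 skeletal muscle genes tested the level was 20.1 and 17.6 CPM and then 4.41 and 3.92 CPM.

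After DSS, interferon-induced, neutrophil chemokine, oxidant, mitotic and cholesterol synthesis genes were higher in the ΔNFκB colon. Genes of smooth muscle, enteric neurons, fibroblasts and detoxifying enzymes were lower. Adjusted p-values are from edgeR's quasi-likelihood test with Benjamini-Hochberg adjustment over all 17522 genes, fold changes are log2 values ± SE of the fit, and a gene is said to have risen or fallen where its adjusted p was 0.05 or less. DSS changed 6199 genes, 35.4% of those tested. Of these, 2832 rose (16.2%) and 3367 fell (19.2%). The median log2 fold change over all genes tested was -0.04. With the sex term 3343 genes passed, 1478 higher (8.44%) and 1865 lower (10.6%), and without DSS replicate 2 there were 3373. Since about 1 gene in 3 passed, each list below is read against these shares.

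**Figure D1:**
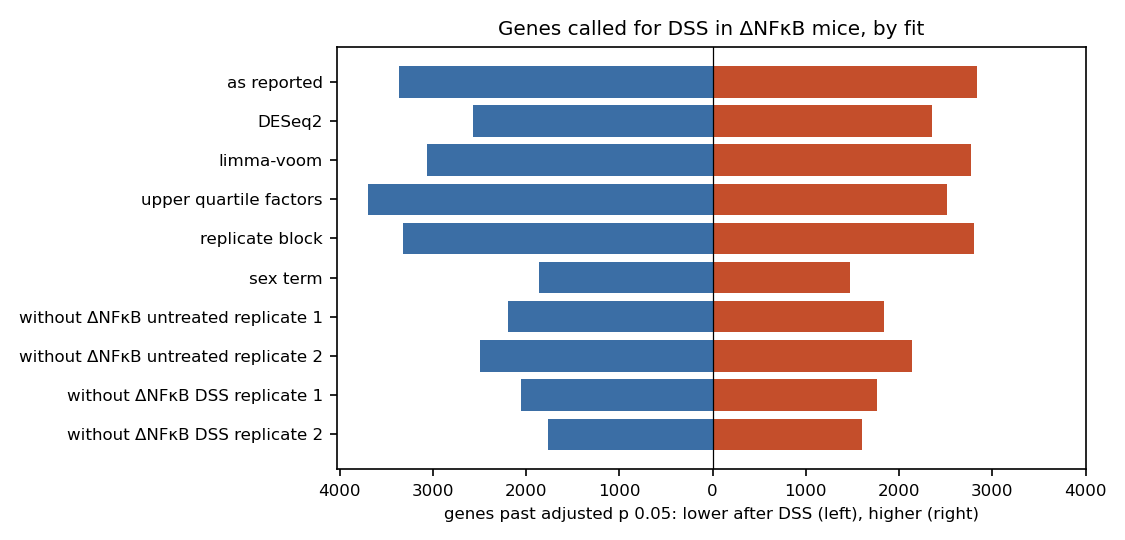
Number of genes higher (right) and lower (left) after DSS in ΔNFκB mice at an adjusted p of 0.05, for the fit reported, 2 other tools, other scaling factors, a replicate block, a sex term and the fits without each ΔNFκB library. The count was 6199 in the fit reported, 3343 with the sex term and 3373 without DSS replicate 2.

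Among the 12 largest rises were genes of the inflamed epithelium. Nos2, the inducible nitric oxide synthase, stood at 0.552 and 1.55 CPM in the untreated mice and 386 and 764 CPM after DSS, a log2 fold change of 9.09 ± 0.83 (adjusted p = 0.000271). Retnlb, an antibacterial protein secreted by goblet cells, stood at 0.0789 and 0.163 CPM in the untreated mice and 143 and 85.2 CPM after DSS, and the ratio of its counts was 953-fold (95% interval 326 to 4620). Clca4b, of the family of calcium-activated chloride channel regulators, went from 5.52 and 7.89 CPM to 2971 and 2423 CPM, a log2 fold change of 8.65 ± 0.81. Groups that do not overlap were a condition of choosing the 12 largest changes each way. Ido1, which degrades tryptophan and is induced by interferon gamma, stood at 0.315 and 1.46 CPM in the untreated mice and 187 and 332 CPM after DSS (8.18 ± 0.64, adjusted p = 0.000164). Plet1, a surface protein of healing epithelium, rose by 7.83 ± 0.64, and Lrg1, a secreted acute-phase glycoprotein, by 7.61 ± 0.26. Saa3, an acute-phase apolipoprotein, had no count in either untreated mouse and 6.45 and 7.42 CPM after DSS, at least 57.8-fold higher. The neutrophil chemokine Cxcl3 was at least 31.3-fold and the serine protease Prss22 at least 27.8-fold higher. Sprr2h, a small proline-rich protein of stressed epithelium, had a ratio of 857-fold (95% interval 153 to 33900), and Myot, the muscle protein myotilin, of 243-fold (95% interval 43.1 to 9640); these intervals cover counting error at 95% and not the spread between mice. The 12th, Xist, marks the sex of the mice, at 1.74 and 1.95 CPM in the untreated mice and 1733 and 1626 CPM after DSS. Cxcl3, Prss22 and Myot had no count in either untreated WT mouse, on which the sex term rests. It could therefore not change their log2 effects of 8.45, 8.28 and 7.58, and is no check of them. Sprr2h had 12.26 with it against 9.4 in the fit reported, and Xist -0.17 against 9.82. Of the 12 rises 11, all but Xist, passed without each ΔNFκB library in turn, and 7 passed with the sex term, the others being Xist, Sprr2h, Cxcl3, Prss22 and Myot.

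Of the 12 largest falls 4 were the Y-linked Uty, Ddx3y, Kdm5d and Eif2s3y, at least 339-fold lower in the treated, female mice; each lost its call when any 1 of the 4 libraries was left out and with the sex term. Others were enzymes of detoxification and steroid metabolism. Cyp2c55, a cytochrome P450 that oxidises fatty acids and drugs, stood at 44.9 and 55.6 CPM in the untreated mice and 0.205 and 0.206 CPM after DSS, a log2 fold change of -7.86 ± 0.90 (adjusted p = 0.000596). Its relative Cyp2c69 had no count after DSS and was at least 19.7-fold lower, and the methyltransferase Inmt at least 32.4-fold lower. Hsd3b2, which makes steroid hormones, fell by 5.44 ± 0.41, and the manganese exporter Slc30a10 by 5.07 ± 0.42. Itih2, a serum protein that binds hyaluronan, stood at 19.2 and 19 CPM in the untreated mice and 0.512 and 0.206 CPM after DSS (-5.69 ± 0.33). The kallikrein protease Klk15 had a ratio of 86.4-fold (95% interval 15.2 to 3440) lower, though 54.7% of its exon bases lie in other annotated genes. The complement component C7 went from 9.15 and 15.2 CPM to 0.205 and 0.206 CPM (-5.82 ± 1.41, adjusted p = 0.0144); its adjusted p was 0.0882 without DSS replicate 1, 0.097 without DSS replicate 2 and 0.291 with the sex term.

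**Figure D2:**
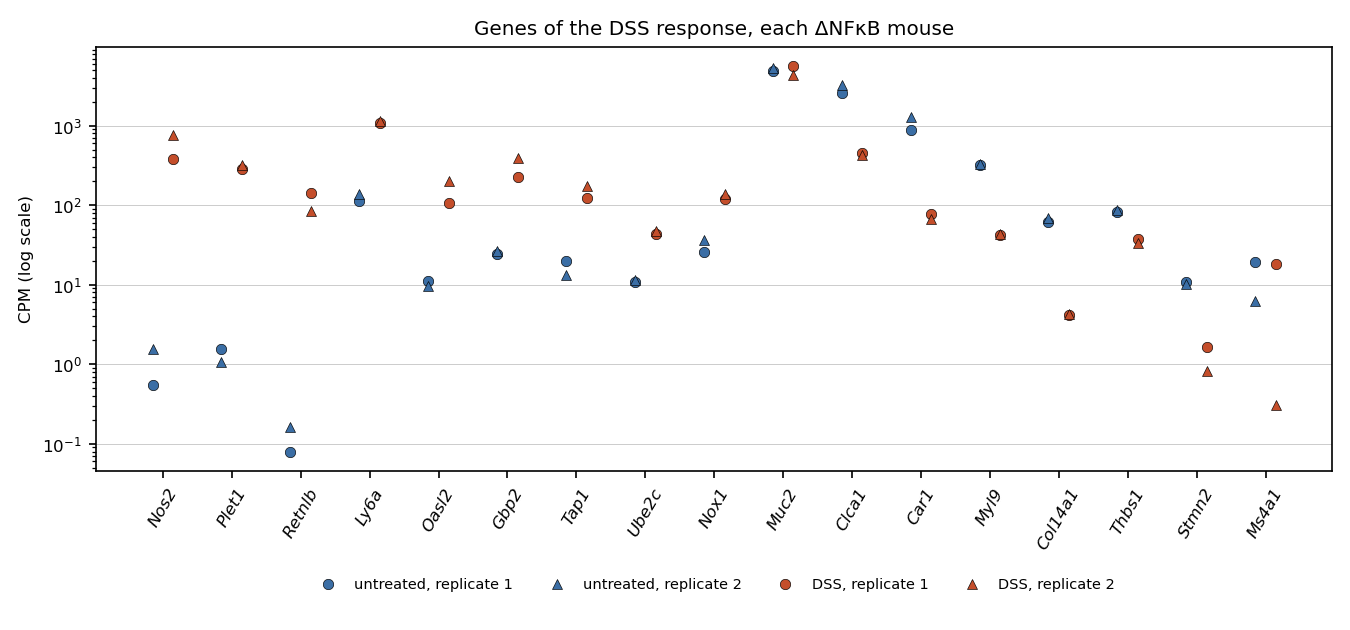
CPM on a log axis of 17 genes named in the text, 1 point per mouse, blue for untreated and red for DSS-treated ΔNFκB mice, circles for replicate 1 and triangles for replicate 2. Nos2 stood at 0.552 and 1.55 CPM untreated and 386 and 764 CPM after DSS, Myl9 at 324 and 332 and then 42.7 and 43.9 CPM, and Ms4a1 separates the treated mice from each other.

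The NAIL transcript itself, annotated as Gm16685 on chromosome 3 from 7612705 to 7690001 on the plus strand of build mm10, was read in all 4 mice. It stood at 0.237 and 0.325 CPM in the untreated mice and 5.63 and 8.86 CPM after DSS, a log2 fold change of 4.64 ± 0.75 (adjusted p = 0.00245). The untreated level rests on only 7 reads over both mice, against 141 after DSS. These reads check nothing about the alteration, since the labels do not say which bases it covers, and 6.6% of its exon bases are shared with another gene, Il7, on the other strand. Il7, a lymphocyte growth factor, stood at 7.89 and 13.3 CPM in the untreated mice and 8.2 and 5.67 CPM after DSS and did not pass (adjusted p = 0.243). Ppm1d, the gene of Wip1, stood at 10.5 and 11.4 CPM in the untreated mice and 9.43 and 9.27 CPM after DSS (adjusted p = 0.336), and Mapk14, the gene of p38 alpha, at 95.1 and 76.6 CPM in the untreated mice and 98.9 and 95.6 CPM after DSS (adjusted p = 0.289). The treated values lay just below the untreated ones for Ppm1d and just above for Mapk14, and overlapped them for Il7. Of 17 genes of the p38 pathway 2 rose and 3 fell, none of the fallers passing without DSS replicate 1 and 1 with the sex term, with a median of -0.08. Map2k3, a kinase that activates p38, rose, from 63.8 and 76.1 CPM to 117 and 122 CPM (0.78 ± 0.14), and Map2k6, which also activates it, fell (-1.39 ± 0.29), a call that also ended without that library. With 1 riser and 6 fallers among 20 targets of p53 (2 and 2 with the sex term), the median of that list was -0.01.

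Among the 21 subunits and inhibitors of NF-κB 11 rose and 1 fell, with a median of 0.49. Without untreated replicate 1 the count of risers was 6, and with the sex term 7 rose and none fell. Rela, the p65 subunit, stood at 30 and 33.5 CPM in the untreated mice and 45.9 and 43.3 CPM after DSS, a log2 fold change of 0.49 ± 0.12 (adjusted p = 0.0142). The groups did not overlap, but the call ended without untreated replicate 1, without DSS replicate 1 and with the sex term (adjusted p = 0.0837). Larger rises were those of the feedback inhibitor Tnip3, from 21.1 and 23.7 CPM to 158 and 184 CPM (2.94 ± 0.26), of the c-Rel subunit (1.66 ± 0.19) and of the nuclear IκB protein Bcl3 (1.79 ± 0.24). Tnf, the cytokine tumour necrosis factor, stood at 0.789 and 0.407 CPM in the untreated mice and 8.61 and 14.4 CPM after DSS (4.24 ± 0.63, adjusted p = 0.00171). Il1b, interleukin 1 beta, stood at 1.81 and 0.651 CPM in the untreated mice and 16.4 and 31.1 CPM after DSS (4.25 ± 0.74, adjusted p = 0.00339). Both rose in both treated mice. Il6 had counts only after DSS, 0.102 and 0.412 CPM, and did not pass (adjusted p = 0.216). Of 16 genes of the TNF and interleukin 1 families 8 rose and 1 fell (6 and 1 with the sex term), with a median of 1.48. They included the receptor Tnfrsf1b (2.53 ± 0.17) and the death ligand Tnfsf10, from 7.81 and 6.51 CPM to 47.3 and 82.6 CPM.

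Interferon-induced genes rose as a group. All 19 interferon-inducible GTPases tested, which attack the membranes that enclose intracellular microbes, rose, with a median of 3.05, and 14 of 19 passed with the sex term. Many interferon-induced genes carry an interferon-stimulated response element near the start. The promoter windows of 3 GTPases are shown because that element, searched as GAAANNGAAA on both strands and printed in capitals, lies in each; they run from 250 bases before to 50 after the annotated start, 5′ to 3′ on the gene's strand, and come from RefSeq on build GRCm38.p6. Gbp2 is at chr3:142620413-142620712, Irgm2 at chr11:58214727-58215026 and Gbp5 at chr3:142496684-142496983, each on the plus strand.
Gbp2: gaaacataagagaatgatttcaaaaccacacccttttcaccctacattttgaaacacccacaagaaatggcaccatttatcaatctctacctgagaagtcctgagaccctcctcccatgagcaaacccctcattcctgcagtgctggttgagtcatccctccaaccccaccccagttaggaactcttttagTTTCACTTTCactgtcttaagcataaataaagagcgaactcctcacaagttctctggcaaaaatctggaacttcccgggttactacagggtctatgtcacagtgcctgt
Irgm2: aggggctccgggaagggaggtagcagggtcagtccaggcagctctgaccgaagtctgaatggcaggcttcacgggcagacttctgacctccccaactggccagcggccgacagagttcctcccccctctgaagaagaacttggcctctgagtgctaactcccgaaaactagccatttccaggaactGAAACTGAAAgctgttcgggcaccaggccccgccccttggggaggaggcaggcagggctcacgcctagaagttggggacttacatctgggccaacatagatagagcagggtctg
Gbp5: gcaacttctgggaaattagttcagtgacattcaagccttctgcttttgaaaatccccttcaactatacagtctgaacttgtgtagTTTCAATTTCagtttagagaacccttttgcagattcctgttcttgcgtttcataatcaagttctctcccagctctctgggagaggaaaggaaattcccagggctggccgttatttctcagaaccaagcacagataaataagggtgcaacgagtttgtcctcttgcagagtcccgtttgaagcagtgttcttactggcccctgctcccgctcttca
The match begins at -59, -64 and -165 from the start. Of the 11 GTPases with a window 10 held a match (90.9%), against 12 of 19 type I antiviral genes (63.2%), 5 of 19 genes of MHC class I (26.3%), and 3.22% of the windows of all genes tested. The windows of Tap1, Oasl2 and Xaf1, which are described next, held none. A match describes the letters of the window and is no evidence of binding.

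Gbp2 stood at 24.2 and 26.3 CPM in the untreated mice and 226 and 392 CPM after DSS, a log2 fold change of 3.61 ± 0.30 (adjusted p = 0.000188). Irgm2 stood at 18.7 and 16.7 CPM in the untreated mice and 100 and 194 CPM after DSS (3.05 ± 0.29), and Gbp5 at 4.5 and 3.5 CPM in the untreated mice and 25.1 and 40.6 CPM after DSS (3.03 ± 0.32). In each the treated mice were above the untreated ones, which choice by p-value made likely. DSS replicate 2 was the higher of the treated mice in each. Of 18 genes of interferon gamma signalling 12 rose and 1 fell, and with the sex term 10 rose and none fell. Socs1, the feedback inhibitor, stood at 1.5 and 2.03 CPM in the untreated mice and 32.6 and 46.4 CPM after DSS (4.48 ± 0.34). The factor Irf8 rose by 1.59 ± 0.15, and Irf1 stood at 84.4 and 132 CPM in the untreated mice and 223 and 306 CPM after DSS (1.29 ± 0.28), a call that ended without untreated replicate 1 and without DSS replicate 2. Ifng, the gene of interferon gamma, was below the filter, with 0 and 0 counts untreated and 6 and 17 counts after DSS.

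Genes of antigen presentation by MHC class I rose in large part. Of 21 genes of MHC class I and peptide loading 19 rose, with a median of 1.33, and 17 with the sex term. Tap1, which carries peptides into the endoplasmic reticulum, stood at 20.2 and 13.2 CPM in the untreated mice and 123 and 176 CPM after DSS (3.16 ± 0.25, adjusted p = 0.000159). The immunoproteasome subunits Psmb9 (2.81 ± 0.22) and Psmb8 (2.56 ± 0.23) rose likewise, and so did Nlrc5, the activator of class I genes, from 18.3 and 3.01 CPM to 107 and 154 CPM, though not with the sex term (adjusted p = 0.0632). Of 12 genes of MHC class II 4 rose and none fell, with a median of 0.45, or 2.24 with the sex term, where 5 rose. H2-Ab1, a chain of the class II molecule, stood at 37.4 and 23.2 CPM in the untreated mice and 110.4 and 111 CPM after DSS (1.87 ± 0.29), and Ciita, its activator, at 20.7 and 5.86 CPM in the untreated mice and 47.1 and 38.9 CPM after DSS (1.69 ± 0.53, adjusted p = 0.0385). The untreated mice differed by over 3-fold in Ciita, and the call ended without untreated replicate 2 and without either treated mouse.

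Type I antiviral genes moved the same way. Of 28 tested 26 rose, with a median of 1.72, and 21 with the sex term. Oasl2, of the oligoadenylate synthetase family, stood at 11.1 and 9.76 CPM in the untreated mice and 105 and 200.2 CPM after DSS (3.87 ± 0.34). Zbp1, a sensor of Z-form nucleic acid, stood at 6.07 and 6.83 CPM in the untreated mice and 94.2 and 149 CPM after DSS (4.23 ± 0.41), and the apoptosis factor Xaf1 at 4.26 and 4.39 CPM in the untreated mice and 16.9 and 22.7 CPM after DSS (2.19 ± 0.21). Treated mice lay above untreated ones in each, which choice by p-value made likely. Among CXCR3 chemokines, which draw T cells, and cytotoxic genes 6 of 10 rose, and 3 with the sex term. Cxcl9 stood at 1.26 and 0.569 CPM in the untreated mice and 36.7 and 59.7 CPM after DSS (5.69 ± 0.50), and Cxcl10 at 0.473 and 0.651 CPM in the untreated mice and 16.3 and 24 CPM after DSS (5.14 ± 0.52). The protease of cytotoxic granules, Gzmb, rose by 5.05 ± 0.63 and did not pass with the sex term (adjusted p = 0.826). Genes of pyroptosis and necroptosis split, 9 rising and 4 falling of 20, and 4 rose without untreated replicate 1. When 1 ΔNFκB library was left out 2 to 3 fell, and with the sex term 1. Ripk3, the kinase of necroptosis, stood at 8.68 and 14.5 CPM in the untreated mice and 79.7 and 87.2 CPM after DSS, and its substrate Mlkl rose by 2.32 ± 0.20. Il18bp, which neutralises interleukin 18, stood at 8.44 and 9.03 CPM in the untreated mice and 51.7 and 70.2 CPM after DSS (2.80 ± 0.21).

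Epithelial oxidant enzymes rose in large part, and antimicrobial genes in part. Of 11 oxidant enzymes 8 rose and none fell, with a median of 1.75 and the same count with the sex term. Nox1, the superoxide-making oxidase of colon epithelium, stood at 25.6 and 36.5 CPM in the untreated mice and 119 and 138 CPM after DSS (2.05 ± 0.19), and Gpx2, which removes peroxides, at 129 and 161 CPM in the untreated mice and 628 and 648 CPM after DSS (2.14 ± 0.19). Duox2, a hydrogen peroxide-making oxidase chosen after its values were seen, went from 52.4 and 104 CPM to 919.8 and 1146 CPM (3.72 ± 0.47). Of 22 antimicrobial and acute-phase genes 12 rose and 3 fell (8 and 2 with the sex term). Among the fallers was Mptx1, a mucosal pentraxin, which stood at 434 and 399 CPM in the untreated mice and 18 and 7.63 CPM after DSS (-5.02 ± 0.34, adjusted p = 0.000108).

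Neutrophil chemokines and neutrophil genes rose. Of 8 ligands of CXCR2 and colony-stimulating factor genes 6 rose (4 with the sex term), with a median of 4.23. Cxcl5 stood at 1.42 and 2.2 CPM in the untreated mice and 125 and 201 CPM after DSS (6.49 ± 0.51), and the counts of Cxcl2 had a ratio of 77.5-fold (95% interval 26.1 to 379). Csf3r, the receptor of granulocyte colony-stimulating factor, stood at 0.631 and 0.244 CPM in the untreated mice and 14.3 and 12.1 CPM after DSS (4.87 ± 0.54). Of 24 neutrophil genes 18 rose and none fell, with a median of 3.53. With the sex term 4 passed, though the median was 4.17. S100a8, a subunit of calprotectin chosen after its values were seen, stood at 3 and 0.163 CPM in the untreated mice and 27.5 and 25.5 CPM after DSS; the counts of the granule protein Retnlg had a ratio of 77.1-fold (95% interval 20.9 to 644). Neither passed with the sex term (adjusted p = 0.536 and 1). Il1r2, the decoy receptor of interleukin 1, stood at 0.237 and 0.244 CPM in the untreated mice and 3.18 and 2.99 CPM after DSS (3.62 ± 0.34). Of 18 CC chemokine genes 6 rose and 3 fell, and with the sex term 1 rose and 1 fell. The lymphoid chemokine Ccl21a fell, from 39.2 and 17 CPM to 4.92 and 1.75 CPM (adjusted p = 0.0923 with the sex term). The interleukin 17 and 22 axis had 4 risers, among them Lif (2.02 ± 0.20) and the NF-κB cofactor Nfkbiz (1.20 ± 0.21), and 5 fallers, among them the receptor Il11ra1 (-1.31 ± 0.17), of 21; 1 fell without DSS replicate 2 or with the sex term.

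Genes of cell division rose. Of 49 genes of mitosis and the kinetochore 47 rose and none fell, with a median of 1.09, and 36 with the sex term. Their summed level was 1261 and 1429 CPM untreated and 2799 and 3068 CPM after DSS. Promoters of mitotic genes often hold a CHR element, searched as TTTGAA, and CCAAT boxes, searched as CCAAT, both on both strands. The windows of 2 mitotic genes and of 1 cholesterol synthesis gene, whose results follow, were chosen because they hold such matches and are shown with them in capitals, overlapping CCAAT matches running together. Ube2c is at chr2:164769679-164769978 on the plus strand, Racgap1 at chr15:99651607-99651906 on the minus strand and Hsd17b7 at chr1:169969156-169969455 on the minus strand, from the same RefSeq table.
Ube2c: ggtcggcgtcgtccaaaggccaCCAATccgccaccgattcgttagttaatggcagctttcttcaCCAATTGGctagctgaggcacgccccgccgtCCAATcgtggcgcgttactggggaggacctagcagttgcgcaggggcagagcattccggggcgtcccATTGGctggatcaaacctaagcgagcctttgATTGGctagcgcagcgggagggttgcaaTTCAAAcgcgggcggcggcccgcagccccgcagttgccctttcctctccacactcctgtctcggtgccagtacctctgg
Racgap1: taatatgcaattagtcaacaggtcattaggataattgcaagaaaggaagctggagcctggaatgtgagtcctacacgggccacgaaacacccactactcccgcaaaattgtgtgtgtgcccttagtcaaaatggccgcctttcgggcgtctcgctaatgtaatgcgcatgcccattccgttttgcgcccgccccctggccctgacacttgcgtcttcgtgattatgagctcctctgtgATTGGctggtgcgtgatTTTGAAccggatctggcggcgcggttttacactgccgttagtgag
Hsd17b7: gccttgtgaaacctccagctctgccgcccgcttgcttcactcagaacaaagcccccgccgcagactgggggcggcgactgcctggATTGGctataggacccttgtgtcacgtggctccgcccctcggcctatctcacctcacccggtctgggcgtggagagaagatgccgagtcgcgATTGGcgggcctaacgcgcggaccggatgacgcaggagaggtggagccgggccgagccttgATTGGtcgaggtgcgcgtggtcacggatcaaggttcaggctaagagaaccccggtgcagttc
Of 40 mitotic genes with a window 29 held a CHR (72.5%) and 28 a CCAAT box (70%), against 12.6% and 38.3% of the windows of all genes tested. The window of Birc5, a mitotic gene described next, held neither. Of 17 cholesterol synthesis genes 15 held a CCAAT box (88.2%). A sterol regulatory element, searched as CACCCCAC, lay in 2 of these 17 (11.8%), against 3.05% of the windows of all genes tested. The letters CCAAT were also common in other lists, in 14 of 19 windows of MHC class I (73.7%) and 19 of 30 of DNA replication (63.3%). TTTGAA lay in 5 of 11 windows of the GTPases (45.5%).

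Ube2c, which marks cyclins for destruction at the end of mitosis, stood at 10.9 and 11.4 CPM in the untreated mice and 44.1 and 47.7 CPM after DSS, a log2 fold change of 2.04 ± 0.16 (adjusted p = 0.000173); 22.8% of its exon bases are shared with other genes. Racgap1, which builds the cleavage furrow, stood at 18.8 and 21.6 CPM in the untreated mice and 59 and 60.6 CPM after DSS (1.57 ± 0.13), and Birc5, survivin, at 10.7 and 13.3 CPM in the untreated mice and 36.8 and 39.2 CPM after DSS (1.66 ± 0.15). Mki67, the proliferation antigen, stood at 281 and 311 CPM in the untreated mice and 560.4 and 604 CPM after DSS, and Ccnb1, cyclin B1, at 16.4 and 22 CPM in the untreated mice and 46.5 and 55.9 CPM after DSS; these last were chosen after their values were seen. No treated value lay under an untreated one in these 5 genes, which choice by p-value or by the values made likely. Of 37 DNA replication genes 27 rose (22 with the sex term) and none fell. Rrm2, which makes deoxynucleotides, stood at 9.7 and 12.9 CPM in the untreated mice and 52.5 and 60.3 CPM after DSS (2.32 ± 0.23), and Mcm10, a loader of replication forks, rose by 1.57 ± 0.16. Fen1, which processes Okazaki fragments, rose by 1.71 ± 0.20, but 84.2% of its exon bases lie in other genes. Of 25 cell cycle regulators 9 rose and 6 fell, 1 to 3 falling when 1 ΔNFκB library was left out and 4 with the sex term, with the repressor E2f8 (1.98 ± 0.14) and cyclin D1, Ccnd1 (1.64 ± 0.17; 23.4% of its exon bases shared), among the risers.

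Biosynthetic lists rose in part. Of 25 genes of cholesterol synthesis 19 rose and none fell, with a median of 1.07, and 15 with the sex term. Lss, which closes the sterol rings, stood at 28.7 and 31 CPM in the untreated mice and 91.4 and 98.2 CPM after DSS (1.67 ± 0.13), and Hsd17b7, a later enzyme, at 20.3 and 21.9 CPM in the untreated mice and 47.6 and 53.4 CPM after DSS (1.26 ± 0.13). Of 27 genes of amino acid supply and tRNA charging 19 rose, and 16 with the sex term. Among the risers were Shmt2 of the one-carbon pathway (2.05 ± 0.15), the serine enzyme Psat1 (2.01 ± 0.18) and the interferon-induced tryptophan tRNA ligase Wars (2.11 ± 0.17). Of 37 ribosome biogenesis genes 25 rose, 10 without DSS replicate 1 and 12 with the sex term. The nucleolar protein Bop1 stood at 23.9 and 26 CPM in the untreated mice and 43.3 and 38.5 CPM after DSS. Of 40 cytosolic ribosomal proteins, by contrast, 2 rose and 12 fell, with a median of -0.27, and 1 fell without untreated replicate 1 and none with the sex term. Annotated rRNA-like genes made up 1.83% and 0.813% of the untreated and 6.07% and 5.09% of the treated libraries, and their part in these counts was not tested. Of 22 genes of the unfolded protein response 12 rose, and 6 without DSS replicate 2. Hyou1, a chaperone of the endoplasmic reticulum, stood at 114 and 109 CPM in the untreated mice and 323 and 336 CPM after DSS (1.56 ± 0.19), and the growth factor Manf rose by 1.45 ± 0.23.

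**Figure D3:**
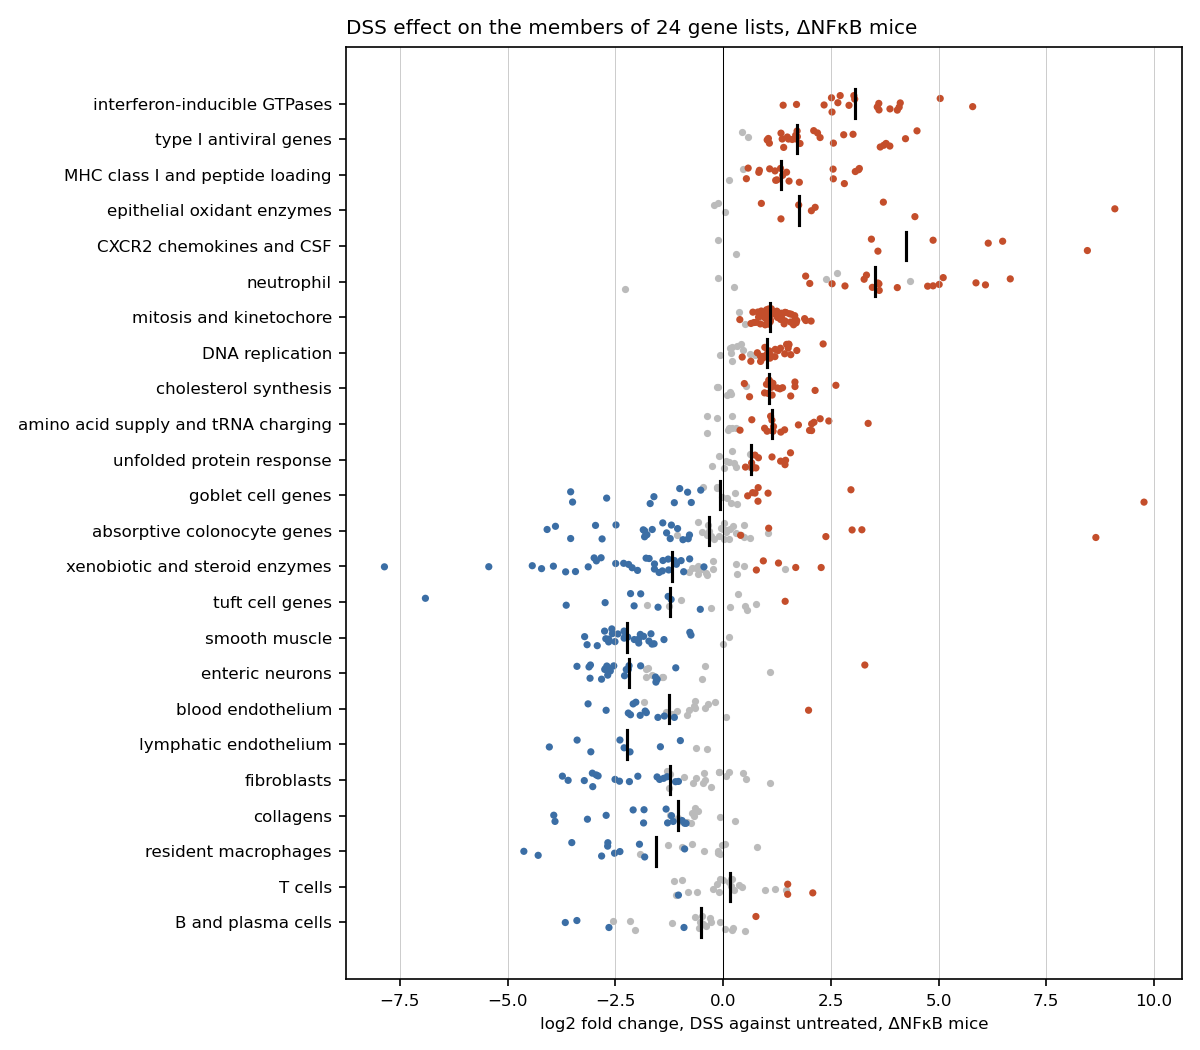
Log2 fold change (DSS against untreated, ΔNFκB mice) of each gene tested in 24 of the lists; 1 point per gene, red where it rose, blue where it fell and grey where it did not pass, with the line at 0 marking no change and the bar the median. The GTPases have a median of 3.05 and the smooth muscle genes of -2.24.

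Secretory and absorptive epithelial genes did not move as 1 block. Of 26 goblet cell genes 8 rose and 10 fell, with a median of -0.08. With the sex term 6 rose and 4 fell and the median was 0.23, and when 1 ΔNFκB library was left out 5 to 7 rose. Klk1, a tissue kallikrein, stood at 849 and 712 CPM in the untreated mice and 77.5 and 61 CPM after DSS (-3.49 ± 0.18, adjusted p = 6.11e-05), and Clca1, a secreted metalloprotease of mucus, at 2562 and 3223 CPM in the untreated mice and 455 and 433 CPM after DSS (-2.70 ± 0.26). Muc2 did not pass (adjusted p = 0.95), its values overlapping between groups. Of 49 genes of absorptive colonocytes 6 rose and 19 fell, with a median of -0.33. With the sex term 11 rose and 11 fell, and the median was 0.16. Car1, a carbonic anhydrase, stood at 872 and 1279 CPM in the untreated mice and 77.7 and 67.3 CPM after DSS (-3.89 ± 0.22), and Mep1a, a brush border protease, at 232 and 325 CPM in the untreated mice and 17.3 and 15.5 CPM after DSS (-4.09 ± 0.29). Cd177 moved the other way, from 47.2 and 65.4 CPM to 319 and 269 CPM (2.38 ± 0.18). The water channels differed: Aqp4 stood at 126 and 88.2 CPM in the untreated mice and 804 and 899.5 CPM after DSS (2.99 ± 0.40), and Aqp8 at 189 and 376 CPM in the untreated mice and 153 and 114 CPM after DSS (adjusted p = 0.104); both were chosen after their values were seen.

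Enzymes that handle drugs, steroids and sulfate fell widely. Of 50 tested 31 fell and 5 rose, with a median of -1.20, and 22 fell and 3 rose with the sex term. When 1 ΔNFκB library was left out 1 to 4 rose. Hsd3b3, of steroid synthesis, stood at 59.1 and 57.6 CPM in the untreated mice and 3.89 and 2.37 CPM after DSS (-4.21 ± 0.21, adjusted p = 6.11e-05). The glutathione transferase Gstm1 fell by 2.31 ± 0.15 and the sulfotransferase Sult1a1 by 2.94 ± 0.19. Of 33 genes of fatty acid oxidation and ketogenesis 16 fell and 3 rose, with 9 falling without DSS replicate 1 and 5 with the sex term. Acaa2, of the last step of beta oxidation, stood at 57.2 and 52.1 CPM in the untreated mice and 17.6 and 17.9 CPM after DSS (-1.62 ± 0.12), and the acyl-CoA dehydrogenase Acadm fell by 1.16 ± 0.10. Nuclear genes of oxidative phosphorylation stayed near the median of all genes, with 6 risers (1 without untreated replicate 1 and 3 with the sex term) and 2 fallers (none with the sex term) of 44 and a median of 0.04. Of 13 transcripts of the mitochondrial genome 5 fell, none without DSS replicate 1 and none with the sex term; mt-Co3 stood at 2471 and 2559.9 CPM in the untreated mice and 1202 and 1569.5 CPM after DSS. Of 22 glycolytic genes 10 rose, 3 without DSS replicate 2, and 4 fell. Under the sex term 8 glycolytic genes rose and 3 fell. Pgk1 rose by 1.14 ± 0.15, while Pck1, of glucose synthesis, stood at 123 and 110.4 CPM in the untreated mice and 11.5 and 8.76 CPM after DSS (-3.53 ± 0.27).

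Rarer epithelial types and wound epithelium were covered by smaller lists. Of 31 wound-associated genes 11 rose and 3 fell, with 12 and 1 under the sex term and 1 to 5 falling when 1 ΔNFκB library was left out. Ly6c1 stood at 14.2 and 15.3 CPM in the untreated mice and 285 and 287 CPM after DSS (4.28 ± 0.27), and Ly6a, the marker Sca-1 of regenerating crypts, at 113 and 139 CPM in the untreated mice and 1094 and 1156 CPM after DSS (3.16 ± 0.35). Of 20 crypt base genes 5 fell and 1 rose, and 1 fell without DSS replicate 2. Sox9, a crypt transcription factor, stood at 119 and 76.5 CPM in the untreated mice and 37.4 and 30.7 CPM after DSS (-1.52 ± 0.22), Ephb2, which sorts crypt cells, rose by 0.92 ± 0.16 (adjusted p = 0.14 with the sex term), and the stem cell receptor Lgr5, chosen after its values were seen, stood at 7.65 and 6.35 CPM in the untreated mice and 4.82 and 2.68 CPM after DSS (adjusted p = 0.194). Of 20 tuft cell genes 10 fell and 1 rose, with 3 falling without DSS replicate 2 and 5 with the sex term; Hpgds, of prostaglandin D synthesis, fell by 1.91 ± 0.31 and the kinase Dclk1 by 1.28 ± 0.25, the latter not without DSS replicate 2. Of 22 enteroendocrine genes 9 fell and 1 rose (7 and 1 with the sex term). The riser, Tac1, encodes substance P and stood at 7.97 and 7.89 CPM in the untreated mice and 92.3 and 62.9 CPM after DSS (3.29 ± 0.36), against 12.7 and 13.5 CPM in the untreated mice and 2.77 and 2.78 CPM after DSS for the granule protein Scg2. Of 29 junction genes 7 rose and 3 fell, and 1 rose without DSS replicate 2 and 3 with the sex term; occludin, Ocln, fell by 1.43 ± 0.12 and the desmosomal cadherin Dsc2 rose by 0.81 ± 0.15.

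Genes of the muscle and nerves of the colon wall fell in large part. Of 30 smooth muscle genes 28 fell and none rose, with a median of -2.24 and the same count with the sex term. Their summed level was 10787 and 11213 CPM untreated and 2500.5 and 2429 CPM after DSS. Myl9, the regulatory light chain of myosin, stood at 324 and 332 CPM in the untreated mice and 42.7 and 43.9 CPM after DSS (-2.92 ± 0.25, adjusted p = 0.000216). Tropomyosin 2, Tpm2, fell by 2.21 ± 0.18 and Pgm5, of muscle attachment plaques, by 2.28 ± 0.19. The treated mice lay close together and far below the untreated ones. Of 31 genes of enteric neurons 21 fell and 1, Tac1, rose, with a median of -2.18, and 12 fell with the sex term. Uchl1, the ubiquitin hydrolase of neurons, stood at 8.75 and 8.3 CPM in the untreated mice and 0.82 and 1.13 CPM after DSS (-3.11 ± 0.30), Stmn2, of growth cones, at 11 and 10.2 CPM in the untreated mice and 1.64 and 0.824 CPM after DSS (-3.09 ± 0.29), and Vip, a relaxing neuropeptide chosen after its values were seen, at 21 and 20.6 CPM in the untreated mice and 3.18 and 3.3 CPM after DSS (-2.68 ± 0.44). Of 16 genes of enteric glia 9 fell, and 7 with the sex term. Scn7a stood at 42.3 and 37.2 CPM in the untreated mice and 8.5 and 6.39 CPM after DSS. Of 9 genes of the interstitial cells of Cajal, the pacemakers of gut muscle, 6 fell, and 3 without DSS replicate 2. Their receptor Kit, also a mast cell gene, stood at 41.6 and 46.9 CPM in the untreated mice and 13.5 and 12.7 CPM after DSS (-1.75 ± 0.15).

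Stroma and vessels fell in part. Of 34 fibroblast genes 17 fell and none rose, with a median of -1.24, and 20 fell and 1 rose with the sex term. Lum, a collagen-binding proteoglycan, stood at 53.7 and 56 CPM in the untreated mice and 5.22 and 8.14 CPM after DSS (-3.03 ± 0.25), and Cd34 at 38.6 and 38.3 CPM in the untreated mice and 4.3 and 3.92 CPM after DSS (-3.22 ± 0.29). Dcn, decorin, chosen after its values were seen, went from 276 and 292 CPM to 50.6 and 49.1 CPM. Of 25 collagens 14 fell, 4 without DSS replicate 2, and 19 with the sex term. Col14a1 stood at 60.7 and 69.6 CPM in the untreated mice and 4.2 and 4.33 CPM after DSS (-3.93 ± 0.22), and Col3a1, chosen after its values were seen, at 684 and 676 CPM in the untreated mice and 306 and 251 CPM after DSS (-1.29 ± 0.33, adjusted p = 0.0183), a call that ended without any 1 of the 4 libraries. Of 48 genes of matrix and its remodelling 24 fell and 4 rose, and 13 fell without DSS replicate 2. Under the sex term 23 fell and 2 rose. Of 26 genes of blood endothelium 12 fell and 1 rose, and 3 fell without untreated replicate 1 or without DSS replicate 2. The angiopoietin receptor Tek stood at 11.1 and 9.92 CPM in the untreated mice and 1.43 and 1.75 CPM after DSS (-2.72 ± 0.28), and the riser was the leukocyte adhesion molecule Icam1 (1.98 ± 0.31). Of 10 genes of lymphatic endothelium 8 fell (6 with the sex term), among them Mmrn1, from 35.2 and 44.3 CPM to 2.77 and 2.06 CPM (-4.03 ± 0.34).

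Leukocyte lists other than the neutrophil one moved less evenly. Of 24 genes of monocytes and recruited macrophages 13 rose and 1 fell, with 8 rising without DSS replicate 2 and 6 with the sex term; the inhibitory receptor Cd300lf rose by 2.89 ± 0.41. Of 22 genes of resident macrophages 11 fell and none rose, and 7 without DSS replicate 1. F13a1, coagulation factor XIII, stood at 16.3 and 29.1 CPM in the untreated mice and 3.07 and 4.02 CPM after DSS (-2.68 ± 0.34), and Lyve1, shared with lymphatic vessels, at 27.1 and 28.6 CPM in the untreated mice and 5.43 and 5.15 CPM after DSS (-2.40 ± 0.27). Of 24 T cell genes 3 rose and 1 fell, none rose without untreated replicate 2 or with the sex term, and 14 rose without untreated replicate 1. Summed T cell levels were 101 and 22.5 CPM and 74.2 and 56.2 CPM. Of 22 B and plasma cell genes 4 fell, 2 without untreated replicate 1 and 7 without DSS replicate 1, and 1 rose. The median was -0.52, and 1.62 with the sex term, where 2 fell. Iglc1, an antibody light chain, stood at 24.4 and 9.6 CPM in the untreated mice and 2.25 and 0.412 CPM after DSS, and the riser, Xbp1, is also a gene of the unfolded protein response. Of 12 genes of mast cells, eosinophils and type 2 lymphoid cells 4 rose and 2 fell, and 1 rose without DSS replicate 1 or with the sex term; the histamine enzyme Hdc stood at 0.315 and 0 CPM in the untreated mice and 4.2 and 4.95 CPM after DSS, with an adjusted p of 0.173 with the sex term.

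Further lists covered tissues that a distal colon sample can carry along and genes of the clock and of early responses. Of 13 adipocyte genes 5 fell, 2 without untreated replicate 1 or with the sex term, and none rose; their summed level was 254 and 246 CPM and then 104 and 112 CPM. Of 4 red blood cell genes 4 fell, none without untreated replicate 1, without DSS replicate 1 or with the sex term. Of 13 genes of stratified squamous epithelium, which lines the anal canal, 5 rose, 1 without DSS replicate 2 and 3 with the sex term; the keratins Krt6a and Krt6b had no count untreated and at most 1.13 CPM after DSS. Of 20 circadian clock genes 11 fell and 2 rose, and 6 fell without untreated replicate 2. Under the sex term 6 fell and 5 rose. Of 22 immediate early genes 2 fell, Nr4a1, from 17 and 19.9 CPM to 5.12 and 5.56 CPM, and Klf2, which did not pass without either untreated mouse or without DSS replicate 2; neither passed with the sex term, under which 3 others rose.

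The DSS effect itself differed between ΔNFκB and WT mice, by a test of the difference of the effects, in 3102 genes, 17.7% of those tested, 1513 with the more positive effect in ΔNFκB mice (8.63%) and 1589 with the more negative one (9.07%). That count was 489 without ΔNFκB DSS replicate 2 and 3669 without WT untreated replicate 1. In WT mice DSS raised 3022 genes (17.2%) and lowered 3293 (18.8%). Of the WT mice 1 untreated was male and the other 3 were female. The ΔNFκB effect thus compares males with females throughout and the WT effect only in part. In the fit reported genotype and sex are therefore not separated in these differences. The sex term rests on the untreated WT pair, and for the difference it nearly repeats the fit without WT untreated replicate 1. The untreated groups also differed in level, so WT levels are given for the mitosis list and for some genes. Summed untreated levels of cholesterol synthesis genes were 1849.1 and 1881.5 CPM in ΔNFκB and 2574.2 and 2564.6 CPM in WT mice. Those of nuclear oxidative phosphorylation genes were 5765 and 6315.5 against 6898.2 and 7802.7 CPM. Those of collagens were 2148.8 and 2128 against 2666.8 and 1413.8 CPM.

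Genes of mitosis, cholesterol synthesis and goblet cells had the more positive effect in ΔNFκB mice. Of 49 mitosis genes 47 had a more positive DSS effect in ΔNFκB mice and none a more negative one, and 34 did without ΔNFκB DSS replicate 2. In WT mice 4 rose and 22 fell. Their summed level in WT mice was 2519 and 2587 CPM untreated and 1940.5 and 1793 CPM after DSS, so the untreated ΔNFκB mice, at 1261 and 1429 CPM, started lower. Mki67 stood at 572 and 575 CPM in untreated and 374 and 351 CPM in treated WT mice, a difference of effects of 1.64 ± 0.17 (adjusted p = 0.00421). Of 25 cholesterol synthesis genes 20 had a more positive effect, 11 without ΔNFκB DSS replicate 2, and in WT mice 10 fell. Of 26 goblet cell genes 20 did and 1 went the other way, 12 without ΔNFκB untreated replicate 1. In WT mice 19 of them fell, with Muc2 at 5535 and 8426 and then 1400.2 and 2154 CPM. The difference of effects for Muc2 was 1.95 ± 0.39 (adjusted p = 0.0169), a call that ended without ΔNFκB untreated replicate 1 and without ΔNFκB DSS replicate 2 (highest adjusted p = 0.0677). Of 44 nuclear oxidative phosphorylation genes 30 had a more positive effect, but none without ΔNFκB DSS replicate 2. Of 28 type I antiviral genes 16 did, and 3 without WT DSS replicate 2.

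Among the 8 genes with the smallest p-values in that direction were Ccl6, Nox1, Gal3st2c, Muc4, Fgfbp1, Nxpe4 and Sval1, and each passed without each of the 8 libraries and with the sex term. Nox1 stood at 77.4 and 69.3 and then 25.9 and 21.3 CPM in WT mice, a fall, where it rose in ΔNFκB mice; the difference was 3.68 ± 0.26 (adjusted p = 0.00171). The membrane mucin Muc4 likewise rose in ΔNFκB mice, from 213 and 182 CPM to 399 and 414 CPM, and fell in WT mice, from 276 and 374 CPM to 88.5 and 92.8 CPM (2.88 ± 0.23). The growth factor carrier Fgfbp1 went from 32.9 and 28.6 to 56.1 and 59.8 CPM in ΔNFκB and from 50.7 and 63 to 19.4 and 19.3 CPM in WT mice. The chemokine Ccl6, the sulfotransferase Gal3st2c, Nxpe4 and Sval1 fell in both genotypes and fell further in WT mice. Gal3st2c stood at 76.1 and 75.2 and then 10.1 and 9.69 CPM in ΔNFκB mice and at 85.7 and 87.2 and then 1.93 and 2.2 CPM in WT mice.

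**Figure D4:**
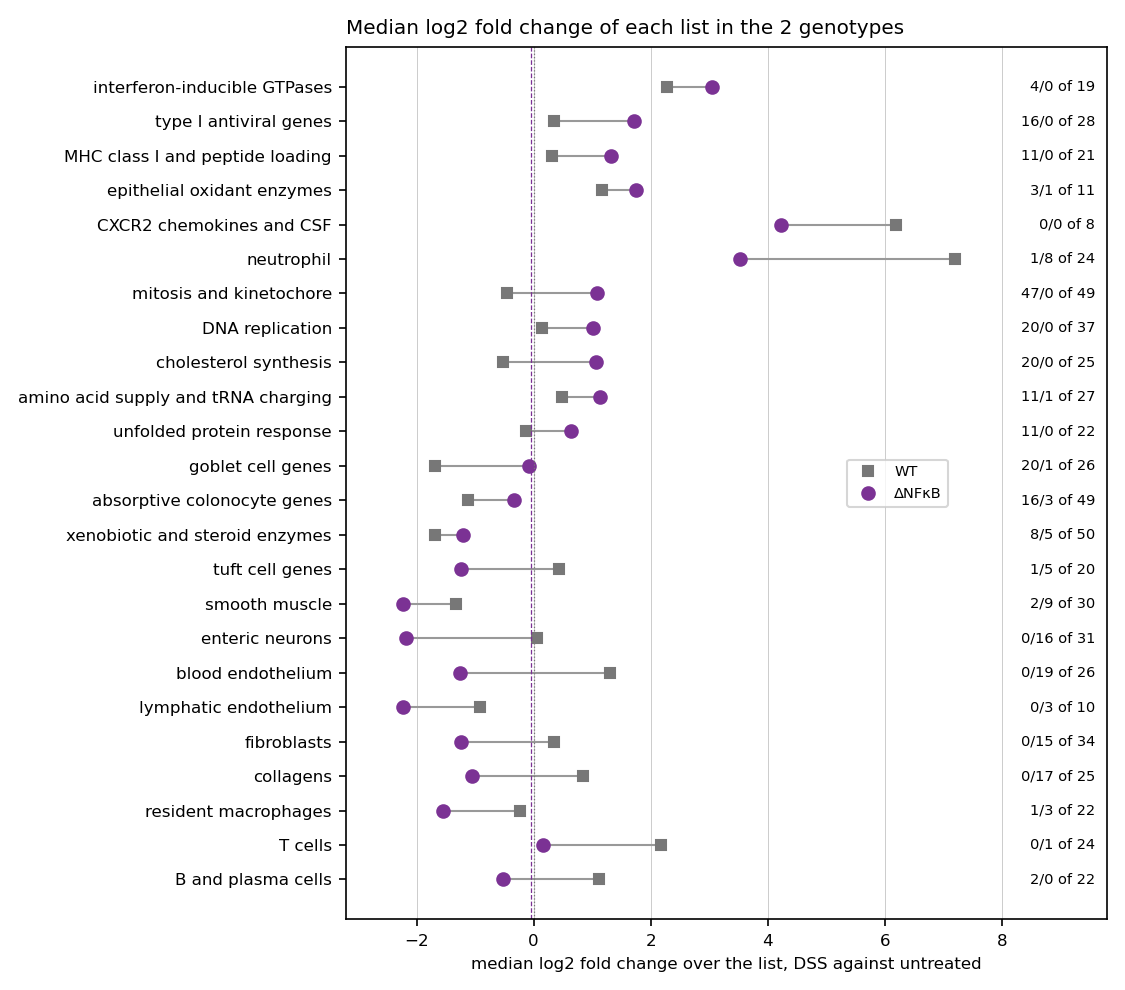
Median log2 fold change (x axis, DSS against untreated) over the genes tested in 24 of the lists, squares for WT and circles for ΔNFκB mice, with vertical lines at the medians over all genes tested; the counts at the right give the genes with a more positive and a more negative effect in ΔNFκB mice, of those tested. The mitosis list lies at -0.45 in WT and 1.09 in ΔNFκB mice, and the blood endothelium list at 1.30 and -1.26.

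Stromal, vascular and neuronal genes had the more negative effect in ΔNFκB mice. Of 26 blood endothelium genes 19 had a more negative DSS effect in ΔNFκB mice, but none without ΔNFκB DSS replicate 2, and in WT mice 13 rose and 2 fell. Of 25 collagens 17 did, 4 without that library, and of 48 matrix genes 27, 6 without it. Of 31 enteric neuron genes 16 did, 5 without it; Uchl1 stood at 5.99 and 8.25 and then 6.86 and 7.97 CPM in WT mice, a difference of -3.17 ± 0.38 (adjusted p = 0.00567). Of 24 neutrophil genes 8 had a more negative and 1 a more positive effect, and the count of 8 was 1 without WT DSS replicate 2 and 5 with the sex term. S100a8 reached 64.5 and 123 CPM in treated WT mice against 27.5 and 25.5 CPM in treated ΔNFκB mice.

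The 8 genes with the smallest p-values in that direction were Thbs1, Itgb8, Hmcn2, Nbl1, Spaca6, Abcc9, Timp2 and Abca1, each past the threshold without each of the 8 libraries and with the sex term. Thbs1, thrombospondin 1, an adhesive matrix protein, stood at 82.2 and 87.9 CPM in the untreated mice and 37.5 and 33.6 CPM after DSS in ΔNFκB mice and at 68.1 and 51.4 and then 383 and 384 CPM in WT mice, a difference of -3.94 ± 0.21 (adjusted p = 0.000397). Itgb8, the integrin chain that activates TGF beta, stood at 9.23 and 7.97 CPM in the untreated mice and 2.36 and 1.34 CPM after DSS in ΔNFκB mice and at 6.23 and 5.1 and then 39.6 and 38.5 CPM in WT mice, a difference of -5.00 ± 0.34. In both genes the treated WT mice were the highest of the 8 and the treated ΔNFκB mice the lowest. Abcc9, a subunit of potassium channels in vascular muscle, went from 47.3 and 44.5 to 21.1 and 19.3 CPM in ΔNFκB mice and from 51.5 and 51.4 to 141 and 213 CPM in WT mice. Abca1, the cholesterol exporter, rose in WT mice from 39.3 and 49.4 to 153 and 161 CPM, while its fall in ΔNFκB mice (-0.85 ± 0.19) ended without untreated replicate 1, without DSS replicate 2 and with the sex term. Timp2, an inhibitor of matrix proteases, fell in ΔNFκB mice by 2.30 ± 0.16 and stood at 77.3 and 61.3 and then 58.7 and 68.9 CPM in WT mice, where it did not pass. The matrix protein Hmcn2 and the BMP antagonist Nbl1 fell in ΔNFκB mice, by 2.08 ± 0.15 and 2.21 ± 0.17, with WT effects of 0.60 (adjusted p = 0.0138) and 0.34 (adjusted p = 0.106). Spaca6, a sperm-egg fusion gene, fell by 1.63 ± 0.18 against a WT rise of 1.15.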

How the data were processed

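Whole distal colon of 8 mice, 4 groups of 2, was sequenced as total RNA. Per the submitters' processing notes, HISAT2 2.1, SAMtools 1.8 and featureCounts of Subread 1.6.2 were used with build mm10; the sources used here do not give the annotation release, the strand setting or the treatment of multi-mapping reads. The deposited values are estimated counts per gene, since 18.8% of nonzero values were not whole, and they were rounded to whole numbers; whole counts had been assumed when the tests were written. Total counts ran from 9229861 to 16935961 per library. The main test was edgeR 4.0.16 in R 4.3.3: filterByExpr, TMM factors, 1 mean per group over all 8 libraries, and the quasi-likelihood F test with Benjamini-Hochberg adjustment at 0.05. The difference of effects was the contrast of the 2 DSS effects. CPM are TMM-normalised. All 55536 gene identifiers are found in GENCODE M21, which gave positions and shared exon bases. An exact permutation test of 2 against 2 cannot go below p = 0.333. A fold against a group with no count used a floor of 3 counts over the group. Each script that fits all genes was tested on simulated data. Of 200 genes changed 2-fold in treated ΔNFκB libraries, 35.5% were recovered as a DSS effect and 0% as a difference of effects. False calls numbered 3 and 0. Of 200 genes changed 4-fold 76% and 55.5% were recovered, with 13 and 11 false calls. Each run changed only 200 genes, while 6199 and 3102 were called in the data. The adjusted p depends on that number, so these shares do not carry over to the fits reported. Alternatives were other factors, filters and tools (DESeq2 1.42.0, limma 3.58.1), the symbol table against the table of gene identifiers, a replicate block, a sex term, leaving out antigen receptor genes and leaving out each library. Named genes are the 12 largest changes each way (mean log2 CPM above 1, groups that do not overlap), the 3 smallest p-values of each list, the 8 smallest p-values each way for the difference, and a fixed set of pathway genes; a few genes under this rule are not reported here. The genotype, its members and the lists were chosen with earlier results of these data known.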

Additional observations from a re-analysis of the deposited data

Results flagged for a closer look

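For 15 genes given here the DSS effect differed between ΔNFκB and WT mice by the test of the difference itself, with the smallest p-values in each direction. The differences of the log2 effects, ΔNFκB minus WT, were 2.12 for Ccl6, 3.68 for Nox1, 2.45 for Gal3st2c, 2.88 for Muc4, 2.47 for Fgfbp1, 2.30 for Nxpe4 and 2.62 for Sval1. In the other direction they were -3.94 for Thbs1, -5.00 for Itgb8, -2.68 for Hmcn2, -2.56 for Nbl1, -2.78 for Spaca6, -2.97 for Abcc9, -2.18 for Timp2 and -2.67 for Abca1. All 15 passed without each of the 8 libraries and with the sex term. For these differences the sex term nearly repeats the fit without WT untreated replicate 1 and is no separate check. With 2 mice per group no group was large enough to look for single outlying mice.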

How the results depend on the processing

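The number of genes changed by DSS in ΔNFκB mice, 6199, was 6210 with RLE factors, 6214 with upper quartile factors, 4925 with DESeq2, 5838 with limma voom, 6348 without a filter and 6296 with the 4 ΔNFκB libraries alone. With the sex term it was 3343, and leaving out 1 of the 8 libraries gave 3373 to 6548. The number of genes whose DSS effect differed between genotypes, 3102, was 2631 with DESeq2, 3683 without a filter and 3772 with the sex term, and leaving out 1 library gave 489 to 3669. Fewer samples belong to the fits without a library. The sex term leaves 1 fewer residual degree of freedom. It also brings the difference between the untreated WT mice into the ΔNFκB effect, which widens the error of that effect. Other causes were not tested. Replicate numbers are shared between groups without a label that ties mice together. The correlation of the deviations of same-numbered mice was 0.244 in ΔNFκB and -0.09 in WT mice, and with a replicate block 6119 and 3038 genes passed. With the sex term the log2 effects of Xist (-0.17), Uty (0.07) and Ddx3y (0.04) changed sign. Of 207 named genes past the threshold 174 passed without each ΔNFκB library and 160 with the sex term. At these depths genes with few counts, such as Ifng, could not be tested.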
